A study of Mus musculus with 19 samples.

Results

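Levels of 36 cell cycle genes were read from RNA libraries of whole kidneys of mice at postnatal day 21, out of 54146 gene identifiers listed per library. The genes were taken by symbol from a list of cyclins, cyclin-dependent kinases, replication factors and mitotic regulators. They were divided by textbook role into 20 G1/S members, which act in the commitment to and execution of DNA replication, and 16 G2/M members, which act in mitosis. The control group held 3 libraries of genotype Dnmt3ab f/f, with floxed Dnmt3a and Dnmt3b and no Cre. The KspCre DKO group held 2 libraries of genotype KspCre Dnmt3ab f/f, with the floxed genes of the controls and, in addition, Cre driven by the promoter of Ksp-cadherin (Cdh16), a gene of tubule epithelium, so that stroma, vessels and blood cells should keep both enzymes. All were of strain B6C3F1/J. Dnmt3a and Dnmt3b encode the enzymes that set new DNA methylation, and the study asked what their loss during kidney development does to the organ. Whether each library is a different animal is not in the labels. The p-values thus rest on differences among these libraries only, which may be technical. Another 14 of the 19 samples were bisulfite libraries and are not analysed here.

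A cell enters division when D-type cyclins with Cdk4 and Cdk6, and then cyclin E with Cdk2, phosphorylate the retinoblastoma protein and free E2F factors, which switch on the genes of DNA replication. After replication, cyclins A and B with Cdk1 drive mitosis, and the anaphase-promoting complex ends it by degrading them. Many replication genes carry E2F sites in their promoters, while many mitotic genes carry CCAAT boxes bound by NF-Y and a cell cycle homology region (CHR) bound by the DREAM and MuvB complexes. In the third week after birth the mouse kidney has finished forming nephrons and still grows by division of tubule, vessel and stromal cells.

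Promoter sequences are given first because the shares of motifs in them differ between the replication members and the mitotic members. RefSeq windows on GRCm38.p6, of 250 bases before and 50 bases after an annotated start, were held for 29 of the 36 members (31 windows, since Ccnd3 and Mcm7 each had 2). Windows are shown for the 3 tested members of each phase with the smallest p in the comparison of the groups, among those with a window. Capitals mark an E2F site (TTTCCCGC, TTTGGCGC, TTTCGCGC or TTTGCCGC), a CHR (TTTGAA or TTTAAA) or a CCAAT box (CCAAT). Both strands were read, so that a match may appear as its reverse complement, and TTTAAA is its own complement.

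For the G1/S phase these were Rrm2, the small subunit of ribonucleotide reductase, Mcm6, a subunit of the replicative helicase, and Ccnd3, cyclin D3.
Rrm2, chr12:24708004-24708303, plus strand: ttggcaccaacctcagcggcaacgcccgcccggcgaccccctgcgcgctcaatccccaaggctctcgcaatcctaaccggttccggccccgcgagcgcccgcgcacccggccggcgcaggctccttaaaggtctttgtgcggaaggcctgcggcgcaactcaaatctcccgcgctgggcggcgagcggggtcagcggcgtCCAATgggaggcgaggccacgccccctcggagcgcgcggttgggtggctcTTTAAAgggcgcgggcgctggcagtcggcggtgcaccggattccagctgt
Mcm6, chr1:128359656-128359955, minus strand: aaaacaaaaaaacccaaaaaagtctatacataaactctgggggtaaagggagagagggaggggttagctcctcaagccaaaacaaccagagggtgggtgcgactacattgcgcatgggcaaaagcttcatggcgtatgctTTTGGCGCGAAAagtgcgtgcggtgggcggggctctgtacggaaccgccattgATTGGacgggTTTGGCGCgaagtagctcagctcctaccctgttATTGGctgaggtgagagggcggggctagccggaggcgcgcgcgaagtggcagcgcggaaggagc
Ccnd3, chr17:47504801-47505100, plus strand: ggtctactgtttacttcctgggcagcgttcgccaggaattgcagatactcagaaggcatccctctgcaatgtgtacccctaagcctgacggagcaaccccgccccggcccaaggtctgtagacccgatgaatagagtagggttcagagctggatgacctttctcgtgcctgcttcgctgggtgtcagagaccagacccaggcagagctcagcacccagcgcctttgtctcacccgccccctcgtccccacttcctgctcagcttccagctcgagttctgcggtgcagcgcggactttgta
Ccnd3, chr17:47593217-47593516, plus strand: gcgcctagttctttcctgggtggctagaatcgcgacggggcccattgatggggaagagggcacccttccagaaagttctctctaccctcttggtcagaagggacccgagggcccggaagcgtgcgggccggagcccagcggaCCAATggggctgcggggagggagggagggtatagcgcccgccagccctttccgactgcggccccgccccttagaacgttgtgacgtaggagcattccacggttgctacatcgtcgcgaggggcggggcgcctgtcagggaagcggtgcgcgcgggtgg

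For the G2/M phase these were Hmgb2, a chromatin protein of dividing cells, Cenpa, the centromeric histone H3 variant, and Ccnb2, cyclin B2.
Hmgb2, chr8:57511593-57511892, plus strand: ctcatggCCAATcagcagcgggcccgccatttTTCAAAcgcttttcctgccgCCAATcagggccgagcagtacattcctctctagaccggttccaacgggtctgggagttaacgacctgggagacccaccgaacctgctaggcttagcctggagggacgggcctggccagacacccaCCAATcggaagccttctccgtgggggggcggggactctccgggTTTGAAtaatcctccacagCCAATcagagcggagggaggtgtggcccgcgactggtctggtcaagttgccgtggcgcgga
Cenpa, chr5:30666636-30666935, plus strand: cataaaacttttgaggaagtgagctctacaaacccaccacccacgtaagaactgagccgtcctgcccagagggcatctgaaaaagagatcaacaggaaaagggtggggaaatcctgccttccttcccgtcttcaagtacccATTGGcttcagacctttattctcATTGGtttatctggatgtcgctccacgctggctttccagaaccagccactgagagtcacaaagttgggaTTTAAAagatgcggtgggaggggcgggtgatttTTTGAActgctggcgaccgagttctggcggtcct
Ccnb2, chr9:70421505-70421804, minus strand: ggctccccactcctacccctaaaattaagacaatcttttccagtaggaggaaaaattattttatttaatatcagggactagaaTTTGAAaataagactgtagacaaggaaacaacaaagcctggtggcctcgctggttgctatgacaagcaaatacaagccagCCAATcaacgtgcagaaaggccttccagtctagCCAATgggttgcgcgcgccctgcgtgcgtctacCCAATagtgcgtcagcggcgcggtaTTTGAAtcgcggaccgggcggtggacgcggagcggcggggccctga

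The Mcm6 window held 3 E2F matches, of which 2 overlap on opposite strands at 110 and 106 bases before the start and the third begins 47 bases before it, and no CHR. Hmgb2 and Ccnb2 each held 2 TTTGAA matches, with 4 and 3 CCAAT boxes. In Ccnb2 one TTTGAA lay 5 bases after the annotated start, and the nearest CCAAT box began 21 bases before it. Cenpa held TTTAAA 17 bases before the start, TTTGAA 17 bases after it and 2 CCAAT boxes. Rrm2 held 1 CCAAT box 50 bases before its start and TTTAAA at the start itself. One Ccnd3 window had no match and the other had 1 CCAAT box.

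Over the members, a CHR of either form was found in 12 of 13 G2/M windows (92.3%) and in 5 of 18 G1/S windows (27.8%), against 27.6% of all 32851 windows in the table. A CCAAT box was in 12 of 13 G2/M windows and in 12 of 18 G1/S windows (66.7%), against 37.4% of all windows. CHR and CCAAT together were in 11 G2/M windows (84.6%) and 4 G1/S windows (22.2%), against 10.7% of all. E2F sites showed the opposite order, with 5 of 18 G1/S windows (27.8%) and 1 of 13 G2/M windows (7.69%, Cdk1) against 2.26% of all. The G1/S windows with an E2F site were those of Cdk2, Mcm3, Mcm5, Mcm6 and Mcm7. Members were grouped by known function, so these shares are descriptions with no test, and a match in letters is not evidence of binding.

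**Figure D1:**
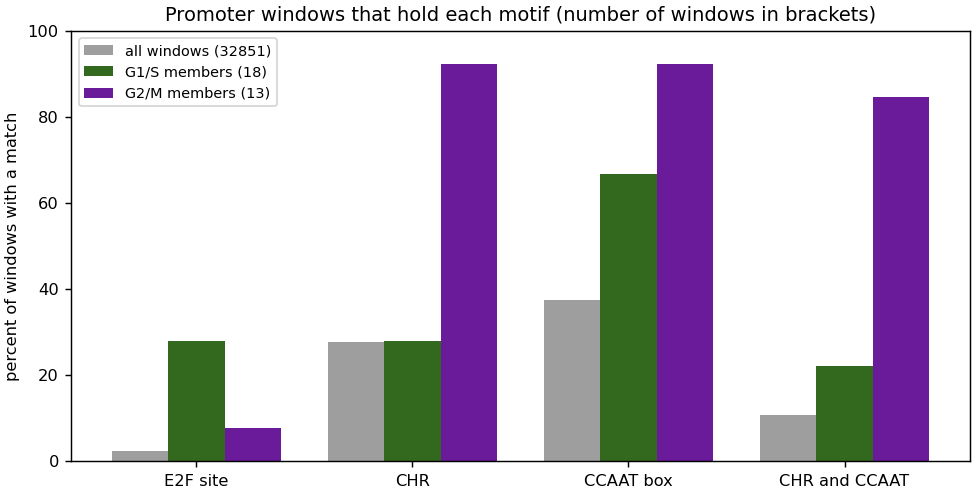
Percent of RefSeq promoter windows (y axis) that hold each motif (x axis), for all 32851 windows and for the windows of the G1/S (18) and G2/M (13) members. CHR with CCAAT is in 84.6% of the G2/M windows, 22.2% of the G1/S windows and 10.7% of all windows.

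The 5 libraries were unlike in complexity, as counted by genes above 0 TPM (a level per transcript length, scaled to the same total in each library). KspCre DKO replicate 2 had 14710 such genes and the other libraries had 18488 to 20510. TPM keep no read number, so the depth is unknown and no counting interval can be given. In KspCre DKO replicate 2, 5.47% of tested genes were listed at 0, against 0.466% to 0.995% in the other libraries, and a value listed there at 0 may be a failed estimate. Mitochondrial genes took 31.0% of its TPM, against 18.2% to 23.2% in the other libraries. Dnmt3a stood at 13.2, 18.97 and 15.5 TPM in control replicates 1 to 3 and at 9.98 and 14.2 TPM in KspCre DKO replicates 1 and 2 (the order used throughout), and Dnmt3b at 1.82, 2.86 and 1.98 against 2.29 and 3.25 TPM. Neither gene differed beyond the spread (limma adjusted p = 0.709 and 0.866), so the targeted genes do not check the labels in whole kidney, and each direction below rests on the libraries as labelled.

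No cell cycle member passed the test between KspCre DKO and control. Of the 36 members, 33 reached a mean of 1 TPM and were tested with limma on log2(TPM + 1). Of these, 0 had an adjusted p below 0.05, where 0.0645% of all 13963 tested genes were called lower and 0.1% higher, and the smallest value among the members was adjusted p = 0.322 (Hmgb2). With an unadjusted p below 0.05, 7 members were lower (21.2%, against 6.15% of all tested genes) and 0 were higher (against 4.16%). The 7 were Ccnd1, Rrm2 and Mcm6 of the G1/S phase and Hmgb2, Cenpa, Ccnb2 and Top2a of the G2/M phase. By sign of the fold change alone, 29 of the 33 were lower (87.9%, against 61.7% of all tested genes) and 4 were higher (against 38.3%). The groups did not overlap, with both KspCre DKO libraries below the 3 controls, for 6 members (18.2%, against 15.6% of all tested genes). They were Ccnd1, Ccnd3, Rrm1, Rrm2, Cenpa and Hmgb2, and no member lay wholly above the controls (against 10.5%). The share without overlap was thus close to that of all genes. For 5 of the 6, all but Rrm1, the difference in means had an exact permutation p = 0.1 (two-sided), the smallest that 3 against 2 libraries allow. Lack of overlap already makes the labelled split the most extreme one downward, so this p adds no support. In a bulk sample fewer cells of a type and less RNA per cell cannot be told apart.

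**Figure D2:**
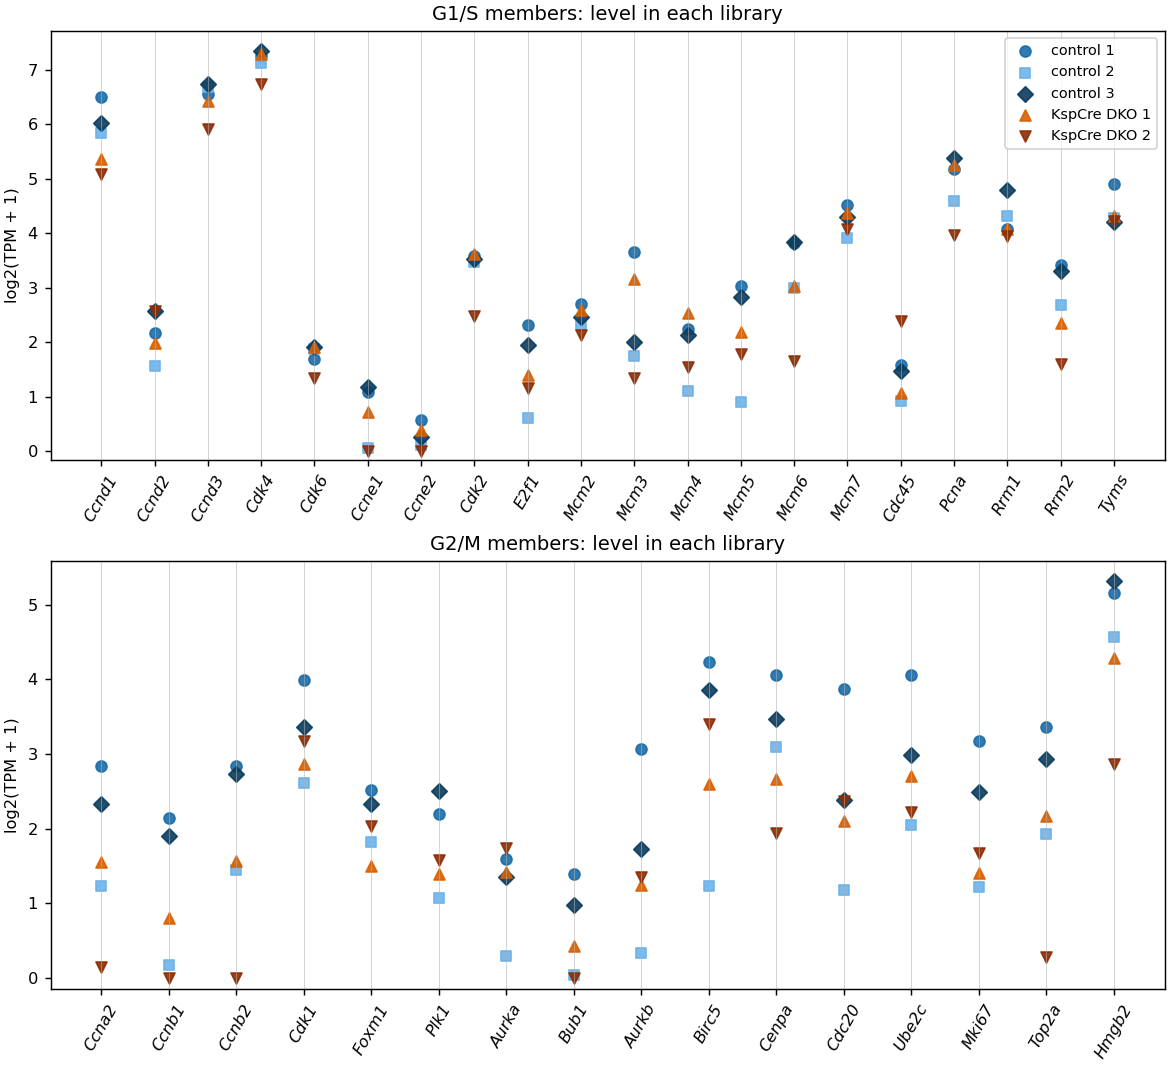
Level of each member as log2(TPM + 1) (y axis) in each of the 5 libraries (symbols), with G1/S members in the upper panel and G2/M members in the lower one. In the lower panel control replicate 2 is the lowest control for every gene and lies below a KspCre DKO library for every gene but Cenpa and Hmgb2.

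Cdk4, the kinase that pairs with cyclin D, had the highest level of all members, followed by the cyclins Ccnd3 and Ccnd1. Cdk4 stood at 153, 139 and 161 TPM in control kidneys against 155 and 107 TPM in KspCre DKO kidneys, with overlap. Ccnd1, cyclin D1 (chr7:144929931-144939831 on GRCm38.p6), stood at 89.5, 56.7 and 64.6 TPM against 40.1 and 33.0 TPM. Both KspCre DKO values of Ccnd1 lay below the lowest control, or −0.91 ± 0.30 (SE) in log2 units (limma adjusted p = 0.339). Ccnd3, cyclin D3, stood at 92.7, 101.8 and 106.5 TPM against 85.4 and 59.6 TPM, also without overlap, but with most of the gap from KspCre DKO replicate 2 (a difference of −0.48 ± 0.27 SE in log2 units, with adjusted p = 0.588). Ccnd2, cyclin D2, was much lower at 3.48, 1.97 and 4.97 TPM against 2.98 and 4.93 TPM, and its groups overlapped fully. Cdk6, the second cyclin D kinase, stood at 2.23 to 2.76 TPM over the controls, against 2.76 and 1.54 TPM. The order of the cyclin D genes by level, with Ccnd3 and Ccnd1 far above Ccnd2, was the same in all 5 libraries. Ccnd3 exceeded Ccnd1 in each of them.

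Cyclin E, which carries cells from G1 into replication, was near the lower end of the measured range. Ccne1 stood at 1.14, 0.05 and 1.27 TPM against 0.66 and 0 TPM, and Ccne2 at 0.49, 0.08 and 0.20 against 0.32 and 0 TPM. Both were under the mean of 1 TPM and were not tested. Cdk2, their kinase, was even across the controls at 10.9, 10.1 and 10.6 TPM and stood at 11.3 and 4.57 TPM in the KspCre DKO libraries. Its lower value came from KspCre DKO replicate 2 alone. E2f1, the activating E2F factor, stood at 4.0, 0.52 and 2.88 TPM against 1.65 and 1.24 TPM, with control replicate 2 the lowest of the 5 libraries.

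The subunits of the Mcm2 to Mcm7 hexamer, the helicase that opens DNA at origins, did not move as a unit. Mcm6 stood at 13.2, 6.99 and 13.3 TPM against 7.18 and 2.16 TPM, or −1.21 ± 0.47 (SE) in log2 units (limma adjusted p = 0.428), and KspCre DKO replicate 1 was above control replicate 2. Mcm7, the most abundant subunit, stood at 22.0, 14.2 and 18.8 TPM against 19.7 and 15.9 TPM, or −0.025 ± 0.31 (SE) in log2 units, with a 95% interval of −0.73 to 0.68. Mcm2 stood at 5.49, 3.99 and 4.51 against 5.05 and 3.38 TPM. Mcm2 and Mcm7 showed the smallest differences of the 6 subunits. Mcm3 stood at 11.6, 2.35 and 3.03 against 8.0 and 1.55 TPM, Mcm4 at 3.72, 1.16 and 3.37 against 4.84 and 1.93 TPM, and Mcm5 at 7.23, 0.88 and 6.14 against 3.56 and 2.45 TPM. In these 3 the spread inside a group exceeded the difference between groups, and for each of the 6 subunits control replicate 2 was the lowest control. The proteins are used in equal number, but within a library the highest subunit exceeded the lowest by 5.54-fold to 16.1-fold, with the widest gap in control replicate 2. Cdc45, which joins the hexamer when origins fire, stood at 2.0, 0.90 and 1.79 TPM against 1.11 and 4.22 TPM. Its highest value was in KspCre DKO replicate 2, the library that was the lowest of the 5 for 17 of the 33 tested members and for 7653 of all 13963 tested genes.

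Among genes of DNA synthesis, Rrm2 differed most. It stood at 9.76, 5.43 and 8.94 TPM against 4.10 and 2.03 TPM, without overlap, or −1.17 ± 0.39 (SE) in log2 units (limma adjusted p = 0.352). Rrm1, the large subunit of the same enzyme, which is less tied to S phase, stood at 15.95, 18.9 and 26.7 against 15.93 and 14.4 TPM. Its groups were without overlap only narrowly. Pcna, the sliding clamp of the polymerases, stood at 35.5, 23.2 and 40.7 against 37.4 and 14.7 TPM, with the KspCre DKO libraries on both sides of control replicate 2. Tyms, thymidylate synthase, stood at 28.9, 18.6 and 17.6 against 19.1 and 17.8 TPM, with only control replicate 1 apart. A pseudogene copy of Pcna, Pcna-ps2, stood at 0.46 to 0.61 TPM in 4 libraries and 2.49 TPM in KspCre DKO replicate 2. How reads were divided between this copy and Pcna was not tested.

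Mitotic cyclins were low and, in KspCre DKO replicate 2, nearly or wholly undetected. Ccnb2, cyclin B2, stood at 6.17, 1.72 and 5.65 TPM over the controls, against 1.96 and 0 TPM (a difference of −1.56 ± 0.61 SE in log2 units, with limma adjusted p = 0.426). Ccnb1, cyclin B1, stood at 3.41, 0.13 and 2.74 against 0.75 and 0 TPM. Ccna2, cyclin A2, which acts in S phase and at mitotic entry, stood at 6.13, 1.35 and 4.01 against 1.93 and 0.11 TPM. A pseudogene copy, Ccnb2-ps, stood at 0.10, 1.37 and 0.34 against 0.95 and 0.60 TPM, and how reads were divided between it and Ccnb2 is uncertain. In all 3 cyclins, control replicate 2 was below KspCre DKO replicate 1 and the groups overlapped. Cdk1, the kinase these cyclins activate, was not at the floor, at 14.9, 5.14 and 9.24 against 6.27 and 8.02 TPM. In KspCre DKO replicate 2 Cdk1 was thus above its level in replicate 1, while its cyclins were listed at 0 or near it. Foxm1, a transcription factor of mitotic genes, stood at 4.71, 2.54 and 4.04 against 1.83 and 3.11 TPM, and Plk1, a kinase of mitotic entry, at 3.59, 1.10 and 4.65 against 1.63 and 1.99 TPM. Aurka, the centrosomal Aurora kinase, was the 1 G2/M member with a positive fold change, at 2.03, 0.23 and 1.55 against 1.68 and 2.34 TPM (a difference of 0.50 ± 0.50 SE in log2 units, with adjusted p = 0.762).

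Of the centromere and chromosome passenger genes, Cenpa was the one without overlap. Cenpa stood at 15.7, 7.56 and 10.1 TPM against 5.34 and 2.84 TPM, or −1.24 ± 0.40 (SE) in log2 units (limma adjusted p = 0.329). Birc5 (survivin) stood at 17.8, 1.35 and 13.4 against 5.08 and 9.59 TPM, and Aurkb, the kinase of the same passenger complex, at 7.36, 0.26 and 2.30 against 1.38 and 1.55 TPM. For both of these the controls held the highest and the lowest of the 5 values. Control replicate 1 exceeded control replicate 2 by 13.2-fold for Birc5 and 28.3-fold for Aurkb. Bub1, a spindle checkpoint kinase, stood at 1.62, 0.03 and 0.97 against 0.35 and 0 TPM and was not tested.

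Among the partners of the anaphase-promoting complex, Cdc20, its activator, stood at 13.7, 1.27 and 4.24 TPM against 3.31 and 4.19 TPM, and Ube2c, its ubiquitin-conjugating enzyme, at 15.7, 3.12 and 6.96 against 5.54 and 3.67 TPM. Mki67, the Ki-67 antigen used to count dividing cells, stood at 8.03, 1.32 and 4.61 against 1.65 and 2.2 TPM. In these 3 genes control replicate 2 was the lowest of the 5 libraries. Top2a, the topoisomerase that untangles chromosomes, stood at 9.31, 2.81 and 6.64 against 3.48 and 0.22 TPM (a difference of −1.52 ± 0.63 SE in log2 units, with limma adjusted p = 0.454). Hmgb2, the most abundant G2/M member, stood at 34.8, 22.7 and 39.0 against 18.6 and 6.28 TPM, without overlap. Its log2 fold change was −1.44 ± 0.45 (SE; limma adjusted p = 0.322), and without KspCre DKO replicate 1 it passed the test (adjusted p = 0.0459). That refit holds 1 KspCre DKO library, taken to vary like the controls, and it called 470 of all 13849 genes tested lower, so 1 of 33 members is no more than the share of all genes.

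**Figure D3:**
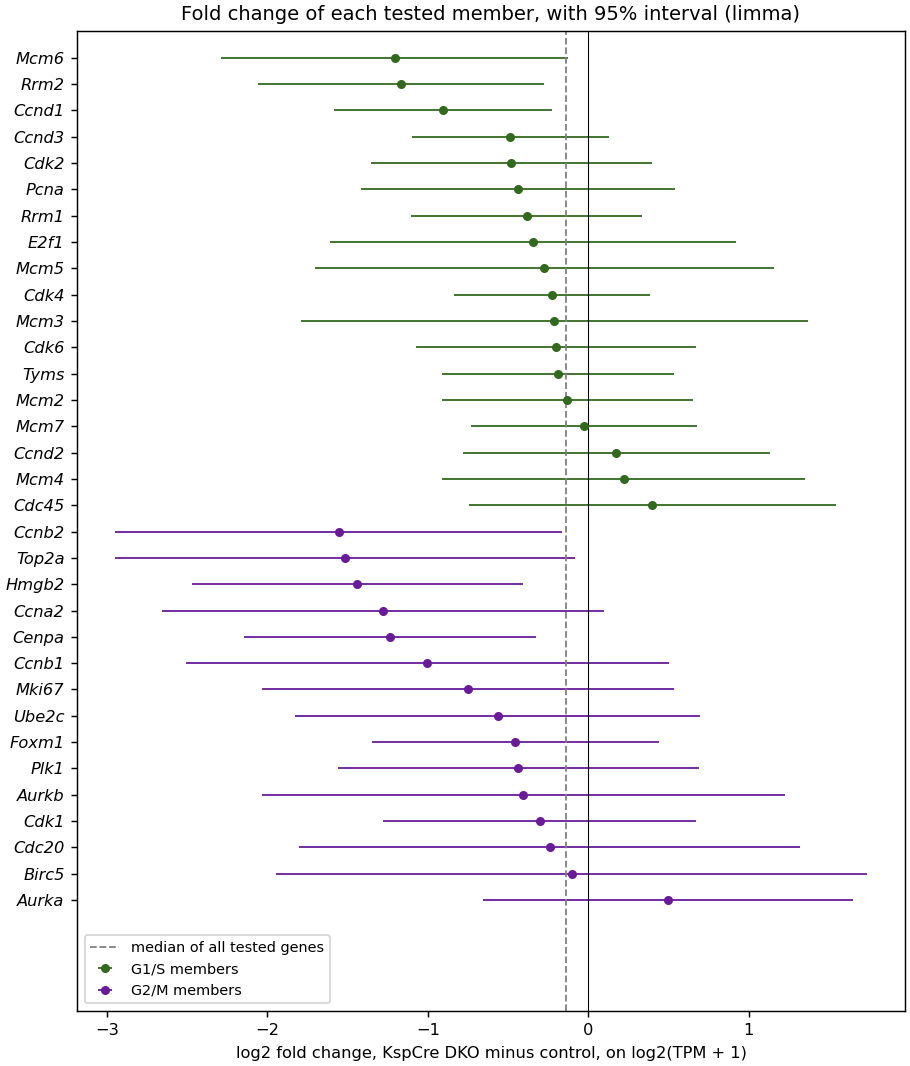
Log2 fold change, KspCre DKO minus control, on the log2(TPM + 1) scale (x axis) for the 33 tested members (y axis), with the 95% interval of limma and the median of all tested genes (dashed, −0.14). Intervals of 7 members lie wholly below 0 before adjustment, and no member passed after it.

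Set side by side, the G2/M members had the lower median log2 fold change. It was −0.57 over 15 tested G2/M members and −0.25 over 18 tested G1/S members, against −0.14 for all tested genes. A negative sign was held by 14 of 15 G2/M members (93.3%) and 15 of 18 G1/S members (83.3%). The difference between the phases was −0.31. It was 0.0034 among the 17 members with a mean of at least 5 TPM, where the median was −0.434 for G2/M and −0.437 for G1/S members. Both medians thus moved under this filter, which uses the mean over both groups, and the reason was not tested. No test was made of the difference between the phases, since members of a phase share the cells they come from.

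The G2/M members were also the more variable ones among the controls. Their median range over the 3 controls was 1.44 log2 units, against 0.70 for G1/S members and 0.49 for all tested genes. The median deviation of the G2/M members from the control mean was 0.67, −0.90 and 0.19 in control replicates 1, 2 and 3, and −0.58 and −0.61 in KspCre DKO replicates 1 and 2. For the G1/S members it was 0.26, −0.37 and 0.12 in the controls, and −0.09 and −0.48 in the KspCre DKO libraries. Over all tested genes it was 0.03, −0.08 and 0.05 in the controls, and 0.13 and −0.39 in the KspCre DKO libraries. In KspCre DKO replicate 2 the median of all tested genes was thus also below the control mean, at −0.39 beside −0.48 for G1/S and −0.61 for G2/M members. What part of the member values there goes with this shift was not tested. The G2/M median minus the G1/S median was 0.40, −0.53 and 0.07 in the controls, and −0.49 and −0.14 in the KspCre DKO libraries. Control replicate 2 was the lowest control for 15 of 15 G2/M and 14 of 18 G1/S tested members, which is 87.9% of the 33 against 47.2% of all tested genes. In KspCre DKO replicate 1 the G1/S members stood near the control mean, whereas the G2/M members stood below it.

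Summed TPM, which add levels per length, also put control replicates 1 and 3 highest. The 16 G2/M members summed to 165, 52.6 and 120 TPM over the controls and to 60.7 and 46.1 TPM over the KspCre DKO libraries. Without the D-type cyclins, Cdk4 and Cdk6, the G1/S members summed to 172, 107 and 160 TPM against 140 and 86.3 TPM. The ratio of the first sum to the second was 0.959, 0.490 and 0.752 in the controls and 0.434 and 0.534 in the KspCre DKO libraries. Control replicate 2 lay between the KspCre DKO libraries in this ratio, and in both sums it was above KspCre DKO replicate 2 and below replicate 1.

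**Figure D4:**
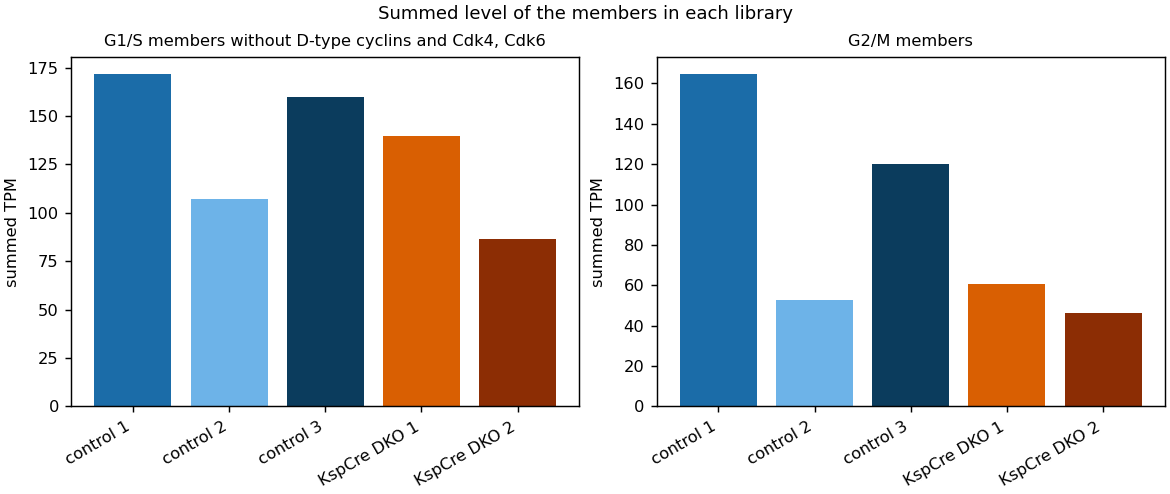
Summed TPM (y axis) of the G1/S members without D-type cyclins, Cdk4 and Cdk6 (left) and of the 16 G2/M members (right) in each library (x axis; each bar is 1 library). Control replicates 1 and 3 reach 165 and 120 TPM for G2/M, and control replicate 2 at 52.6 TPM lies between the KspCre DKO libraries at 60.7 and 46.1 TPM.

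What the comparison shows thus depended on single libraries. Without control replicate 2, both KspCre DKO libraries lay below the remaining controls for 21 of 33 members (63.6%, against 24.8% of all tested genes), among them 14 of 15 G2/M members. Aurka was the exception. The same order of libraries held for 6 of 6 podocyte, 6 of 7 fibroblast and 5 of 6 thick ascending limb markers tested (below). It held for 4 of 7 macrophage, 4 of 8 endothelial, 1 of 6 collecting duct and 0 of 8 proximal tubule markers. The pattern was thus not particular to cell cycle genes. Without control replicate 2 the median log2 fold change of the members was −0.85. In that refit 11 members were lower with an unadjusted limma p below 0.05 (against 4.85% of all tested genes), but 0 passed after adjustment (smallest adjusted p = 0.474). Without control replicate 1, 19 of 32 members were lower, where 59.4% of all tested genes were, and 1 (Hmgb2) was lower with an unadjusted p below 0.05 (against 4.34%). Without KspCre DKO replicate 2, 24 of 33 were lower, against 38.5% of all tested genes, and 0 had an unadjusted p below 0.05 (against 3.01% lower). The G2/M median was −0.58 there, and the G1/S median was −0.092. Without KspCre DKO replicate 1, the remaining KspCre DKO library lay below all controls for 17 of 33 members, against 57.8% of all tested genes.

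Fibroblast, endothelial and podocyte markers shared with the members a low control replicate 2, whereas by gene macrophage and tubule markers mostly did not. The 8 fibroblast markers summed to 222, 101 and 243 TPM over the controls and to 80.5 and 117 TPM over the KspCre DKO libraries. The 7 tested fibroblast markers all had negative fold changes. The 8 macrophage markers summed to 128, 91.8 and 109 against 59.97 and 61.6 TPM, without overlap, and 7 of 7 tested had negative fold changes. The 8 endothelial markers summed to 543, 288 and 470 against 373 and 278 TPM, and the 6 podocyte markers to 269, 96.9 and 274 against 188 and 149 TPM. Control replicate 2 was the lowest control for 6 of 7 tested fibroblast, 8 of 8 endothelial and 6 of 6 podocyte markers, and for 3 of 7 macrophage markers (42.9%, against 47.2% of all tested genes). The 6 thick ascending limb markers summed to 1540, 1429 and 1471 against 742 and 431 TPM. The 6 collecting duct principal cell markers summed to 976, 1041 and 1017 against 2404 and 2416 TPM, and the 8 proximal tubule markers to 2797, 2131 and 1769 against 4329 and 1677 TPM. Aqp2 took the largest part of the rise in the collecting duct sum, at 347, 240 and 426 against 1414 and 1218 TPM. In that list 4 markers had positive fold changes and 2 (Scnn1g and Hsd11b2) negative ones. The proximal tubule list had 5 positive and 3 negative fold changes. Control replicate 2 had the lowest control sum for the thick ascending limb and not for the proximal tubule or collecting duct. By gene it was the lowest control for 1 of 6 thick ascending limb, 3 of 8 proximal tubule and 2 of 6 collecting duct markers. These shares (16.7%, 37.5% and 33.3%) were all below the 47.2% of all tested genes.

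Most markers of nephron progenitors and of lymphocytes were under the mean of 1 TPM. Six2, the defining gene of nephron progenitors, did not exceed 0.09 TPM in any library, and the 7 progenitor markers summed to 24.9, 20.9 and 27.6 against 22.6 and 10.6 TPM. The 3 tested progenitor markers went in both directions. Cited1 stood at 5.49, 10.84 and 15.26 against 4.09 and 0 TPM, without overlap (limma adjusted p = 0.304). Crym had a positive fold change, at 11.92, 6.28 and 6.13 against 14.97 and 6.64 TPM, with overlap. Meox1 had a negative one, also with overlap. The 8 lymphocyte markers summed to 9.76, 3.49 and 7.04 against 12.5 and 3.34 TPM, with 6 of 8 under the mean of 1 TPM. Cd79b made most of both KspCre DKO sums, at 1.57, 0.87 and 0.56 against 9.71 and 3.34 TPM, higher without overlap. Each of the other markers had a lower mean in KspCre DKO than in control kidneys. Of these, only Cd8a was tested, and it was lower without overlap (a difference of −1.19 ± 0.52 SE in log2 units). Which cells made the cell cycle transcripts, and the part of any cell type in these differences, was not tested.

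Other cell cycle genes, in 8 lists chosen by function and not by movement, gave 0 of 115 tested genes past adjusted p below 0.05, out of 127 listed. Of the 115, 4 were lower (3.48%, against 6.15% of all tested genes) and 3 higher (against 4.16%) with an unadjusted p below 0.05, and the median log2 fold change was −0.22. The list nearest to the G2/M members in function, spindle, kinetochore and cytokinesis genes, had 21 of 23 tested genes lower with a median of −0.33. Its gene of smallest p was Kif23, a kinesin of the cleavage furrow, at 11.7, 26.9 and 41.9 TPM against 6.61 and 8.46 TPM (a difference of −1.54 ± 0.49 SE in log2 units, with limma adjusted p = 0.325). Cenpe, a kinetochore motor, stood at 2.71, 3.26 and 3.19 against 1.82 and 0.57 TPM. For both the lowest control was replicate 1, which was not the rule of their list. Control replicate 2 was the lowest control for 17 of its 23 tested genes (73.9%, against 47.2% of all tested genes), and for all tested G2/M members.

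**Figure D5:**
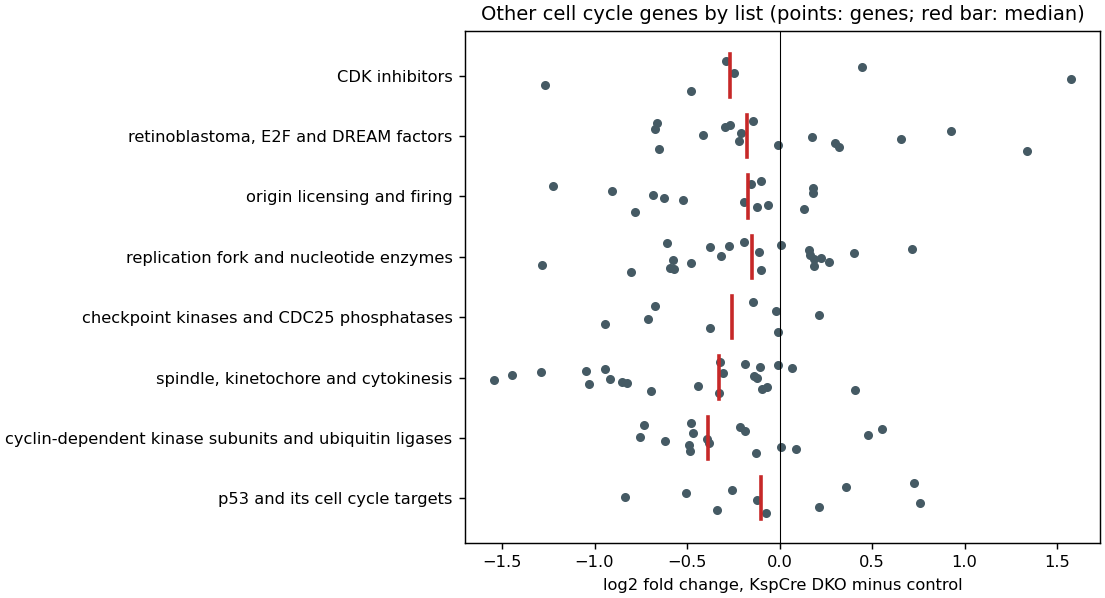
Log2 fold change, KspCre DKO minus control (x axis), of the 115 tested cell cycle genes outside the 36 members, by list (y axis; points are genes and red bars are list medians). Medians run from −0.39 to −0.10, and no gene passed the test.

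Inhibitors of the cyclin-dependent kinases went in both directions. Cdkn2b (p15, an inhibitor of Cdk4 and Cdk6) stood at 2.07, 1.81 and 1.70 TPM against 8.63 and 6.50 TPM, without overlap. Its log2 fold change of 1.57 ± 0.34 (SE) had the smallest p of the 115 genes (limma adjusted p = 0.165). Cdkn2c (p18), of the same family, stood at 8.30, 4.63 and 9.57 against 4.85 and 0.99 TPM (a difference of −1.27 ± 0.51 SE in log2 units, with adjusted p = 0.442). Cdkn1a (p21), the p53 target, stood at 17.6, 25.8 and 15.1 against 14.6 and 16.1 TPM. It was highest in control replicate 2, the control in which most members were lowest. Cdkn1b (p27) stood at 9.60, 13.5 and 12.7 against 22.9 and 11.8 TPM, and Cdkn1c (p57) at 104, 43.7 and 162 against 57.8 and 99.98 TPM. Over the list, 4 of 6 tested genes were lower, with a median of −0.27.

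Among the retinoblastoma, E2F and DREAM genes 10 of 16 were lower, with a median of −0.18. Tfdp2, a dimer partner of E2F factors, stood at 5.94, 5.24 and 9.02 TPM against 19.5 and 16.8, without overlap (a difference of 1.34 ± 0.33 SE in log2 units, with limma adjusted p = 0.201). Tfdp1, the other partner, stood at 18.4, 23.3 and 27.1 against 17.3 and 11.4 TPM, also without overlap and in the opposite direction (a difference of −0.65 ± 0.32 SE in log2 units, with adjusted p = 0.53). The activator E2f1 itself, described above, overlapped between the groups.

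In origin licensing and firing 11 of 14 genes were lower, with a median of −0.17. Dbf4, the activating subunit of the Cdc7 kinase, stood at 3.40, 4.03 and 6.24 against 2.17 and 0.71 TPM (adjusted p = 0.377, limma), and Orc6, of the origin recognition complex, at 14.4, 9.93 and 14.7 against 12.2 and 3.91 TPM. Replication fork and nucleotide genes had 13 of 22 lower with a median of −0.15, near that of all genes. Rfc5 and Rfc2, of the clamp loader, stood at 10.97, 9.79 and 15.1 against 9.43 and 1.63 TPM, and at 71.5, 64.04 and 69.1 against 54.4 and 37.8 TPM. Both were without overlap, with KspCre DKO replicate 2 the lowest library.

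Checkpoint kinases and CDC25 phosphatases had 7 of 8 lower (median −0.26), with Chek2 at 4.68, 2.89 and 2.90 against 2.46 and 0.53 TPM and Atr, the replication stress kinase, at 6.63, 10.2 and 5.22 against 5.45 and 3.01 TPM. Kinase subunits and ubiquitin ligases had 12 of 16 lower (median −0.39). In that list Cdc27, a core subunit of the anaphase-promoting complex, stood at 6.61, 5.77 and 6.30 against 5.37 and 1.87 TPM, and Anapc2, its cullin, at 36.6, 34.3 and 45.8 against 69.8 and 46.7 TPM. The groups did not overlap for either subunit, and they went in opposite directions. Of p53 and its targets 6 of 10 were lower (median −0.10). Btg2, an antiproliferative gene, stood at 16.1, 13.6 and 17.1 against 28.1 and 24.7 TPM (a difference of 0.73 ± 0.28 SE in log2 units, with limma adjusted p = 0.42), and Mdm2, the ligase that degrades p53, at 31.6, 29.3 and 27.6 against 26.3 and 9.70 TPM.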

How the data were processed

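RNA was extracted from whole kidneys and poly(A) libraries were made, per the labels' protocols. The deposited values are TPM per gene, made by the authors. Per the submitters' processing notes, which give no roles, tools included RSEM 1.3.1 with STAR 2.2.1, beside Trim Galore 0.5.0, and the build was mm10. The annotation and whether counting used strand were not given in the sources used here, so overlapping and antisense genes may share reads. Of 54146 Ensembl identifiers, 54079 (99.9%) matched a symbol, 1599 of them only without the version number. Groups came from the titles.

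The test was limma 3.58.1 under R 4.3.3, two-sided, with a trended empirical Bayes variance on log2(TPM + 1), for 13963 genes whose mean reached 1 TPM, with Benjamini-Hochberg adjustment over all of them. Fold changes on this scale understate those of low genes. An exact permutation of 3 against 2 libraries cannot go below p = 0.1. The script was tested on simulated data. Named genes are all members, the targeted genes and, in each other list, genes past the test or the 2 of smallest p; other CDK inhibitors, marker genes and pseudogenes were picked with their values in view. The members and lists were chosen with earlier results of these data known. Promoter windows are from RefSeq (GRCm38.p6). Alternatives were pseudocounts, filters, scalings, variance models, a replicate block and each library left out.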

Additional observations from a re-analysis of the deposited data

How the results depend on the processing

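The count of 0 members past adjusted p below 0.05 was the same in 14 of 15 refits, the exception being 1 (Hmgb2) without KspCre DKO replicate 1. Members lower with an unadjusted limma p below 0.05 numbered 4 of 36 with no filter on low values (against 4.46% of all tested genes). They numbered 1 to 11 when single controls were left out, where that share ran from 2.47% to 4.85%. Members with a negative fold change numbered 17 of 17 at a mean of at least 5 TPM (against 63.2% of all tested genes). They numbered 19 to 31 over the leave-one-out refits, where the share of all tested genes ran from 38.5% to 73%. Members without overlap, lower, numbered 6 to 21 over those refits, a count chosen after seeing the data, where the share of all tested genes ran from 17.6% to 57.8%. The median log2 fold change of the members ran from −0.85 to −0.24 over them, that of G1/S members from −0.48 to −0.092 and that of G2/M members from −1.09 to −0.30. The difference between phases ran from −0.64 to −0.14, and was 0.0034 at a mean of at least 5 TPM. The 23 genes called over the whole table (14 higher, 9 lower) became 14 with a pseudocount of 0.1, 39 with 5, 4 with no filter, 36 rescaled without mitochondrial genes, 42 with quantile normalization, 9 without a trend, 5 with array weights and 6 to 560 with a library left out. Quantile normalization gave 35 higher and 7 lower, and median-of-ratios scaling gave 23 and 7, and the median of all genes moved from −0.14 to −0.02 and −0.03.

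With the replicate number as a block, 75 genes were called and 0 members. Deviations of same-numbered libraries from their group means correlated at r of 0.09 and 0.03 across genes. With 2 KspCre DKO libraries these deviations mirror each other, so the values cannot decide whether the numbers pair libraries. No pairing was assumed in the main fit. Signs turned in 34 of 478 refitted member fold changes, for 17 of 33 members. Birc5 was 0.0046 with a pseudocount of 0.1, 0.025 with median-of-ratios scaling, 0.024 without mitochondrial genes and 0.27 with the replicate block. Mcm7 was 0.091 with median-of-ratios scaling, 0.083 without mitochondrial genes, 0.058 with quantile normalization and 0.0028 with the replicate block, where Mcm5 was 0.012. With single libraries left out the ranges that span 0 were Ccnd2 −0.11 to 0.46, Cdk4 −0.50 to 0.044, Cdk6 −0.48 to 0.085, Cdk2 −1.05 to 0.090, E2f1 −0.85 to 0.0047, Mcm2 −0.36 to 0.10, Mcm3 −1.12 to 0.70, Mcm4 −0.27 to 0.72, Mcm5 −0.95 to 0.11, Mcm7 −0.19 to 0.12, Cdc45 −0.25 to 1.05, Pcna −1.08 to 0.21, Tyms −0.32 to 0.027, Cdk1 −0.65 to 0.030, Aurkb −1.09 to 0.27, Birc5 −1.04 to 0.46 and Cdc20 −0.89 to 0.46. The cause of these shifts was not tested. Depth is unknown, so a value at 0 in KspCre DKO replicate 2 sets no upper limit.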
